A study of Mus musculus with 12 samples.

Results

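The promoters of Tal1, Lyl1 and Tcf3, which encode haematopoietic transcription factors of the basic helix-loop-helix (bHLH) family, were followed through a promoter contact map of mouse haematopoietic stem cells (HSCs). All contacts whose promoter label, without its trailing number, was Tal1, Lyl1 or Tcf3 were taken. This gave 87 contacts from 4 captured promoter fragments of 3 genes, out of 89545 listed contacts of 3781 promoter entries (0.0972%). Tal1 had 1 fragment and 23 contacts, Lyl1 1 fragment and 15 contacts, and Tcf3 2 fragments, listed as Tcf3_1 and Tcf3, with 10 and 39 contacts.

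Fetal HSCs came from E14.5 fetal liver of B6129SF1 mice and were sorted as Lin-Sca1+cKit+CD135- cells, and adult HSCs came from bone marrow of mice 6 to 8 weeks old. Capture-C ligates DNA fragments that lie close together in fixed nuclei and then enriches the ligation products of chosen promoters. It was run on 4 libraries of each population, 2 in each of 2 batches that captured different promoters, and all 4 member fragments belonged to the first batch (1952 promoters, 49944 contacts). Each population has a single deposited value per contact, so the spread between libraries is unknown, no difference was tested, and no interval below covers that spread. Intervals of counts and count ratios cover counting error only. Those of shares and medians treat bins as independent, although many are neighbours, so they can be too narrow. The 4 HPC7 samples (2 wild-type and 2 TCF3-knockout), a line of blood stem and progenitor cells derived from embryonic stem cells, were not analysed here.

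Proteins of the bHLH family bind DNA as dimers at a short motif called the E-box. Tcf3 encodes E proteins, broadly expressed members that pair with partners restricted to certain lineages, and Tal1 and Lyl1 are closely related partners of this kind in blood. Tal1 is needed to form blood stem cells in the embryo, and Tal1 and Lyl1 have overlapping roles in adult stem cells. Dimers of Tal1 with an E protein join the bridging proteins Lmo2 and Ldb1 and a GATA factor on DNA, while Id proteins pair with E proteins and keep them off DNA.

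RefSeq promoter windows of the members (build GRCm38.p6, 250 bases before to 50 after a gene start) are shown because the 3 genes encode E-box factors whose complex includes GATA proteins. Capitals mark an E-box, searched as CANNTG, or a GATA motif, searched as GATA on either strand and so also as TATC. In the first window below, GATA and TATC overlap in the run of 6 capitals nearest its 5′ end. The windows are chr4:115056176-115056475 (Tal1, plus strand), chr8:84701207-84701506 (Lyl1, plus strand) and chr10:80433586-80433885 (Tcf3, minus strand).
Tal1: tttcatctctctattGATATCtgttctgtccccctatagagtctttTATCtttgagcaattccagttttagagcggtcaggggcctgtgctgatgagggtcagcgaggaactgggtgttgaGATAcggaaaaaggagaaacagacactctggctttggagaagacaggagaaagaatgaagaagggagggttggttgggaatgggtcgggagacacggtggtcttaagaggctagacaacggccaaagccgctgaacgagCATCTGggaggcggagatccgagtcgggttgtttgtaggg
Lyl1: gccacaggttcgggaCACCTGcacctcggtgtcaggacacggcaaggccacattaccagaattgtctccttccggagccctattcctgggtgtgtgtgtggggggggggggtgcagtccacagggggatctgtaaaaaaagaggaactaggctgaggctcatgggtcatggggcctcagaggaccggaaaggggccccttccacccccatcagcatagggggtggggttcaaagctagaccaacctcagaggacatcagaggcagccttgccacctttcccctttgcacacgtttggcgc
Tcf3: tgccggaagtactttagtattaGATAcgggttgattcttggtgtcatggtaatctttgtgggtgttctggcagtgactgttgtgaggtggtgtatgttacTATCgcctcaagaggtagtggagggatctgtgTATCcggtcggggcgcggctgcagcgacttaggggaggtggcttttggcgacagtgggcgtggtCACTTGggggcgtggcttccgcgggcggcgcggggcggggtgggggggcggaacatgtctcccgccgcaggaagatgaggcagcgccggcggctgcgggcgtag

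Each of these windows held 1 E-box, which lay after the gene start in Tal1 and before it in Lyl1 and Tcf3. GATA was matched 4 times in Tal1, 3 times in Tcf3 and 0 times in Lyl1. A second Tal1 window of RefSeq (chr4:115057561-115057860, plus strand) held neither motif. The ETS motif GGAA, searched on both strands, was matched 4 times in each Tal1 window, 6 times in Lyl1 and 4 times in Tcf3. Over all 32851 promoter windows of this length, 72.3% held an E-box, 57.9% GATA and 96.0% GGAA, so a match to these letters is common. These windows belong to another build than the contacts, and none was assigned to a captured fragment.

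The captured fragments are given in mm9, the build of the contact map. Tal1 (ENSMUST00000136946) was captured at chr4 from 114729934 to 114730187 and Lyl1 (ENSMUST00000037165) at chr8 from 87225234 to 87225480, both on the plus strand. Tcf3 is on the minus strand of chr10. Its Tcf3_1 fragment (ENSMUST00000105339) ran from 79893801 to 79893945 and its Tcf3 fragment (ENSMUST00000156244) from 79884406 to 79885289, with 9.03 kb between their middles. Distances below run from the middle of the fragment to the middle of the distal 2 kb bin, and downstream means in the direction of transcription. In RefSeq, Stil lies upstream and Pdzk1ip1 downstream of Tal1, Trmt1 upstream and Nfix downstream of Lyl1, and Onecut3 upstream and Uqcr11 downstream of Tcf3.

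RNA levels were deposited as 1 FPKM value (fragments scaled to transcript length and sequencing depth) per promoter entry and population, with no replicate error. Tal1 stood at 26.7 in fetal and 30.4 in adult HSCs, a log2 difference (fetal minus adult, with 1 added) of -0.18, and the authors' deposited table does not mark it as differential. Lyl1 stood at 29.95 and 32.4, a log2 difference of -0.11, and was not marked either. The Tcf3 entries stood at 39.0 in fetal and 21.3 in adult HSCs for Tcf3 and at 47.1 and 28.9 for Tcf3_1, log2 differences of 0.84 and 0.68, and both are marked as differential in that table. Tcf3 was thus the member with the higher fetal level, and Tal1 and Lyl1 had near-equal levels in both populations.

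A contact counts as called in a population when its LiMACC score, the contact caller's value per promoter and bin, is above 0. The smallest such score in the first batch was 1.3, and the table lists a contact when either population called it. Fetal HSCs had 49 calls and adult HSCs 58 among the 87 member contacts, where the first batch as a whole had 64.6% and 61.1% of its contacts called. The same bin was called in both populations for 20 contacts (23.0%, exact 95% interval 14.6 to 33.2), against 25.7% over the batch. Of the other 67, 29 were fetal-specific and 38 adult-specific, so fetal-specific contacts made up 43.3% (31.2 to 56.0), against 52.3% over the batch, a share inside that interval.

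Tal1 had 17 fetal and 14 adult calls, and 9 of its 15 specific contacts were fetal. Lyl1 had 7 fetal and 12 adult calls, and 8 of its 11 specific contacts were adult. Tcf3 had 21 fetal and 26 adult calls, and 18 of its 31 specific contacts were adult. Tcf3_1 had 4 fetal and 6 adult calls, and 0 of its 10 contacts were called in both populations, which allows a share of up to 30.8% by the exact interval. Tal1 was the member with the largest shared share, 8 of 23 contacts or 34.8% (16.4 to 57.3), while Lyl1 had 4 of 15 (26.7%) and Tcf3 8 of 39 (20.5%). The intervals of these shared shares overlap. So do those of the fetal share among specific contacts, 60.0% (32.3 to 83.7) for Tal1, 27.3% (6.02 to 61.0) for Lyl1, 41.9% (24.5 to 60.9) for Tcf3 and 12.2 to 73.8% for Tcf3_1, and each holds the batch share.

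Among the promoters of the batch, with median calls of 11 in fetal and 10 in adult HSCs, Tcf3 stood at the 71.0 and 79.6 percentiles and Tal1 at the 64.4 and 59.6 percentiles for fetal and adult calls. Lyl1 stood at 37.8 and 54.9 and Tcf3_1 at 25.1 and 34.6. The order of the members was thus the same in both populations, from Tcf3 through Tal1 and Lyl1 to Tcf3_1. Nearest promoters in calls were tied for every member, and none is named.

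**Figure D1:**
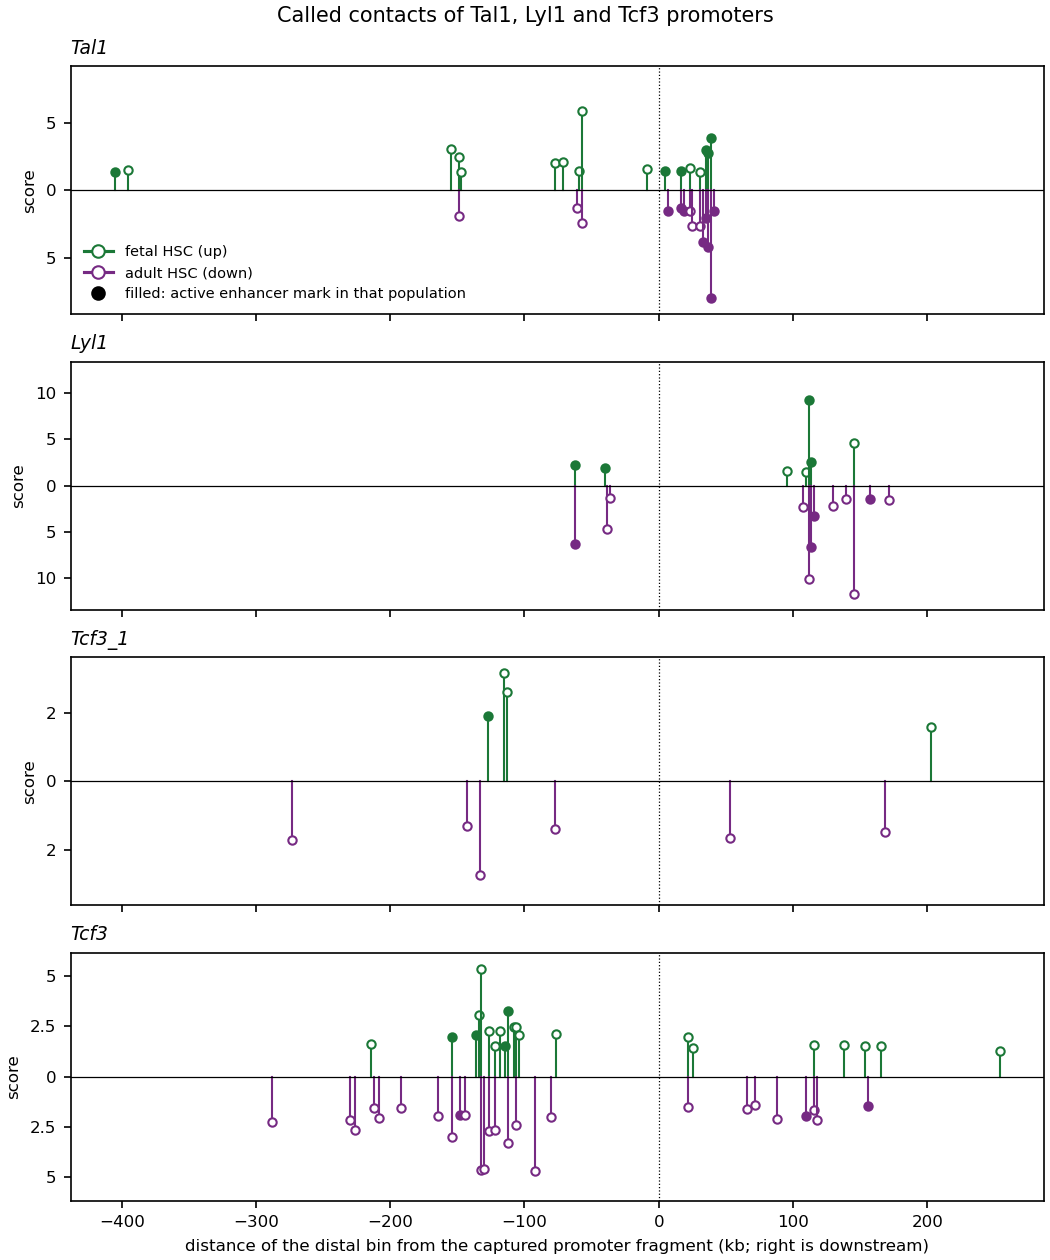
Score of each called contact of the 4 member fragments (vertical axis, fetal upwards in green and adult downwards in purple, scaled separately per panel) against the distance of its 2 kb bin from the captured fragment in kb (right is downstream). Filled points carry an active enhancer mark in that population. Tal1's downstream contacts all lie within 40.9 kb. Upstream, 8 of its 9 specific contacts are fetal (exact interval 51.8 to 99.7%), and the batch share of 52.3% lies inside that interval.

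Marks of the distal bins were deposited for each population as present or absent. An active enhancer mark in either population lay on the bins of 30 of the 87 contacts (34.5%, exact 95% interval 24.6 to 45.4). The share was 15.9% of all first-batch contacts and 22.9% of those within 50 kb. Here and below a bin is counted per contact, so the 2 bins listed for both Tcf3 fragments enter for each. Tal1 had 13 of 23 (56.5%, 34.5 to 76.8), of which 9 carried the mark in both populations, 1 in fetal only and 3 in adult only. Lyl1 had 6 of 15, Tcf3 9 of 39 (23.1%) and Tcf3_1 2 of 10. Active promoter marks lay on 14 member bins (16.1%), against 16.5% of the batch, and 6 of these belonged to Lyl1.

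Open chromatin, measured by ATAC, was listed in both populations at 46 member bins (52.9%), against 44.7% of the batch and 60.6% of its contacts within 50 kb. Lyl1 had 13 of 15 such bins and Tal1 16 of 23, whereas Tcf3 had 13 of 39. None of the marks lay on 17 of the 39 Tcf3 bins (43.6%), while 1 Tal1 and 1 Lyl1 bin had none and Tcf3_1 2 of 10. The batch share of 39.2% lies inside the exact interval of Tcf3 (27.8 to 60.4) and above those of Tal1 (0.110 to 21.9) and Lyl1 (0.169 to 31.9).

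Downstream of Tal1, 12 contacts lay between 4.94 and 40.9 kb, of which 6 were shared, 1 fetal-specific and 5 adult-specific, and 9 carried an active enhancer mark in either population. Upstream, 11 contacts lay between 9.06 and 405 kb, of which 2 were shared, 8 fetal-specific and 1 adult-specific. All 10 contacts beyond 50 kb were upstream, and 7 of the 8 specific ones among them were fetal (exact interval 47.3 to 99.7%), against 53.1% of the batch's specific contacts beyond 50 kb. Of the 6 specific contacts downstream, all within 50 kb, 1 was fetal (0.421 to 64.1%), against 35.5% of the batch's within that distance. Both intervals hold the batch share. Background of the locus includes a stem cell enhancer and an erythroid enhancer downstream of Tal1. No bin was matched to either.

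The strongest Tal1 contact was the bin 38.9 kb downstream (chr4 from 114768001 to 114770001), with scores of 3.90 in fetal and 8.02 in adult HSCs and counts of 46 and 66. It belonged to a run of 6 bins from 30.9 to 40.9 kb, 5 of which carried the active enhancer mark in both populations. In that run 4 bins were called in fetal and all 6 in adult HSCs, and 202 fetal and 252 adult counts gave a ratio of 0.802 (0.663 to 0.968). At 36.9 kb the scores were 2.75 and 4.20 with counts of 39 and 45, and at 34.9 kb they were 2.99 and 2.06 with counts of 42 and 31. The bin at 32.9 kb was called in adult HSCs alone, with a score of 3.81 and counts of 23 fetal and 45 adult. The adult counts were the higher in 5 of the 6 bins, and the bin at 34.9 kb went the other way.

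Nearer to Tal1, the bin at 16.9 kb carried the enhancer mark in both populations and was called in both, with scores of 1.44 and 1.34 and counts of 54 and 42. The bin beside it at 18.9 kb, also marked in both, was called in adult HSCs alone, with counts of 41 fetal and 45 adult. A bin with nearly equal counts in both populations could therefore be called in adult HSCs alone. The highest count of any Tal1 bin, 147 fetal and 128 adult, lay 4.94 kb downstream and was called in fetal HSCs alone. The bin at 6.94 kb was called in adult HSCs alone, with raw counts of 133 fetal and 122 adult. Their ratio of 1.09 stands beside 1.17 over the batch.

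Upstream, the strongest contact lay 57.1 kb from Tal1 (chr4 from 114672001 to 114674001) in a bin with an active promoter mark in both populations. Its scores were 5.91 in fetal and 2.43 in adult HSCs and its counts 42 and 21, the reverse of the order at 38.9 kb downstream. The fetal-specific bin at 155 kb had a score of 3.08 and counts of 12 and 6. The farthest contacts were also fetal-specific, at 405 kb with counts of 8 and 6 and at 395 kb with counts of 8 and 1, a log2 ratio of 2.17 that was the largest of Tal1. The farthest adult contact of Tal1 lay at 149 kb.

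The median distance of Tal1 contacts was 57.1 kb (order-statistic interval 30.9 to 147) for fetal and 33.9 kb (18.9 to 57.1) for adult calls. Counts over the upstream bins summed to 249 fetal and 165 adult, a ratio of 1.51 (1.23 to 1.85), and over the downstream bins to 646 and 672, a ratio of 0.961 (0.862 to 1.07). Scaled to the batch's listed counts within chromosomes, 892529 fetal and 759999 adult, the ratios became 1.29 (1.05 to 1.57) and 0.819 (0.734 to 0.913). The counts thus leaned to fetal HSCs upstream and to adult HSCs downstream under that scaling. Bins enter these sums, and that of the run from 30.9 to 40.9 kb, because they were called. A call selects bins with a high count in the population that made it, so the sums repeat the calls in part.

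**Figure D2:**
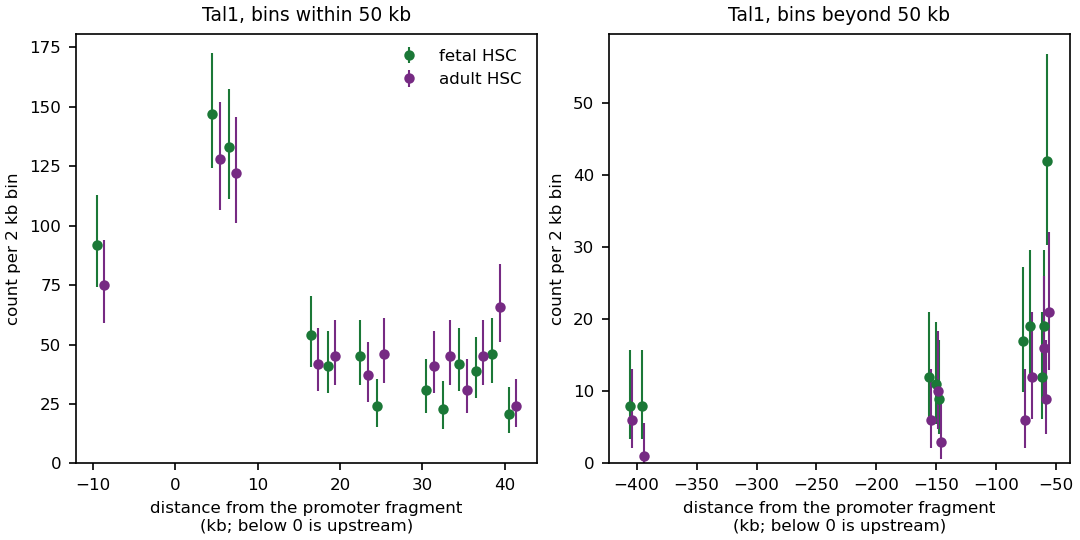
Counts of each Tal1 bin in fetal (green) and adult (purple) HSCs with exact Poisson 95% intervals, against distance in kb, with points of the 2 populations drawn side by side and nearer and farther bins in separate panels. Adult counts are the higher in 5 of the 6 bins from 30.9 to 40.9 kb downstream, and fetal counts in all bins upstream except the one at 61.1 kb.

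Lyl1 had no listed contact between 36.4 kb upstream and 95.6 kb downstream. Its highest adult score was also the highest of any member, at the bin 146 kb downstream (chr8 from 87370001 to 87372001), with scores of 4.57 in fetal and 11.7 in adult HSCs and counts of 15 and 23. This bin was open in both populations and carried no promoter or enhancer mark. The bin at 112 kb had scores of 9.31 and 10.1 and counts of 30 and 28, with an active enhancer mark in fetal HSCs only. It was thus called almost equally in both populations.

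At 114 kb the bin was marked as an active enhancer in both populations and called in both, with scores of 2.61 and 6.65 and counts of 14 and 18. The bin at 116 kb, with the same mark, was called in adult HSCs alone with a score of 3.22 and counts of 5 and 13, the largest adult excess of Lyl1 with 1 added to each count. Together the 5 bins from 108 to 116 kb held 70 fetal and 80 adult counts, a ratio of 0.875 whose interval of 0.626 to 1.22 includes 1. Upstream, the bin at 62.4 kb also carried the enhancer mark in both populations and was called in both, with scores of 2.29 and 6.31 and counts of 24 and 35. Each of the 4 shared Lyl1 contacts had the higher score in adult HSCs.

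A group of 3 bins from 36.4 to 40.4 kb upstream lay at the promoter of Ier2, an immediate early response gene. The bin at 40.4 kb was fetal-specific with counts of 30 and 19, and the bin at 38.4 kb adult-specific with a score of 4.71 and counts of 43 and 44. The bin at 36.4 kb was also adult-specific, with counts of 23 fetal and 22 adult. Summed, the group held 96 fetal and 85 adult counts, a raw ratio of 1.13 (0.835 to 1.53), and 2 of the 3 bins were adult-specific. The ratio of the group was 0.962 when scaled to the batch's listed counts, so its direction depends on the scaling. The active promoter mark lay on the bins at 40.4 and 38.4 kb in adult HSCs alone, and Ier2 stood at 9.15 FPKM in fetal and 41.8 in adult HSCs, with no mark as differential.

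Downstream of the last shared bin, 2 adult-specific Lyl1 contacts reached the promoters of Farsa, a subunit of phenylalanyl-tRNA synthetase, at 158 kb with counts of 3 and 8, and of Syce2, a synaptonemal complex gene, at 172 kb with counts of 7 and 9. The latter was the farthest Lyl1 contact, and the farthest fetal contact was the bin at 146 kb. The contact with the largest fetal excess, at 95.6 kb with counts of 13 and 5, lay within 2 kb of the captured promoter of Nfix, a factor of the nuclear factor I family. Nfix itself stood at 4.39 FPKM in fetal and 13.8 in adult HSCs and is marked as differential. All 15 Lyl1 bins together held 240 fetal and 264 adult counts, a ratio of 0.909 (0.760 to 1.09). The batch ratio of 1.17 lies above that interval, and scaled to the batch's listed counts the Lyl1 ratio was 0.774.

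Tcf3 had 26 bins upstream and 13 downstream. A run of 12 bins from 104 to 136 kb upstream, with no more than 1 unlisted bin between neighbours, held 11 of the 21 fetal and 6 of the 26 adult calls. The run was picked after values were seen, and 6 of its bins were fetal-specific, 5 shared and 1 adult-specific. Its counts summed to 250 fetal and 172 adult, a raw ratio of 1.45 (1.19 to 1.78), beside 1.17 over the batch. Its fetal-specific bins entered the sum through the fetal call, which selects bins with a high fetal count, so the sum repeats the calls in part. The strongest bin of the run, at 132 kb (chr10 from 80016001 to 80018001), had scores of 5.36 in fetal and 4.61 in adult HSCs and counts of 27 and 20. Active enhancer marks lay on 3 bins of the run, in fetal HSCs alone.

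Within the run, the bin at 112 kb was a fetal active enhancer called in both populations, with scores of 3.25 and 3.28 and counts of 26 and 21. The bin at 134 kb was fetal-specific with a score of 3.08 and counts of 20 and 10. The bin at 130 kb, between 2 bins with higher fetal counts, was adult-specific with a score of 4.56 and counts of 12 and 21. It was the only one of the 12 bins with the higher adult count. Outside the run, the bin at 92.2 kb was adult-specific with a score of 4.67 and counts of 14 and 25, and the bin at 154 kb, an active promoter in both populations, was called in both with scores of 1.98 and 3.01 and counts of 16 and 16.

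Beyond 154 kb upstream Tcf3 had 8 contacts, 7 of them adult-specific, out to 288 kb with counts of 4 fetal and 13 adult, the largest adult excess of Tcf3. The fetal-specific exception lay at 214 kb with counts of 13 and 5. Over the batch, 53.1% of the specific contacts beyond 50 kb were fetal-specific. This far upstream stretch was picked after its calls were seen, so no difference from that share was drawn from it. Fetal calls also lay outside the run, and the 13 downstream contacts held 7 fetal and 8 adult calls. The largest fetal excess, with 1 added to each count, was at 76.2 kb upstream, with counts of 29 and 10 and a log2 ratio of 1.45. The median distances, 122 kb (108 to 138) for fetal and 128 kb (110 to 156) for adult calls, overlapped in their intervals; the batch median of 178 kb for fetal calls lies above the fetal interval and that of 153 kb for adult calls inside the adult one.

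Downstream, Tcf3 met the promoters of Mbd3, a subunit of the NuRD chromatin remodelling complex. The bin at 21.8 kb, by the Mbd3_1 promoter, was called in both populations with scores of 1.95 and 1.51 and counts of 75 and 49, and the bin at 25.8 kb was fetal-specific with counts of 55 and 26. Both bins together held 130 fetal and 75 adult counts, a ratio of 1.73 (1.29 to 2.33), or 1.48 (1.10 to 1.99) scaled to the batch's listed counts. The bin at 25.8 kb entered through its fetal call alone, which selects for a high fetal count. The farthest fetal contact, at 254 kb, lay at the promoters of Cirbp, a cold-inducible RNA-binding protein, with counts of 12 and 4. The contact at 71.8 kb, near the promoter of Adamtsl5, was adult-specific with counts of 9 and 18.

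The Tcf3_1 fragment gave fewer and different bins. Its fetal contacts lay at 113, 115 and 127 kb upstream and at 203 kb downstream, with counts of 14 and 5, 16 and 8, 12 and 8, and 9 and 4 for fetal and adult HSCs. The highest score, 3.16, was that of the bin at 115 kb. Of its 6 adult contacts, the one at 133 kb upstream had the highest score, 2.74, with counts of 5 and 12, and the one at 52.9 kb downstream the highest adult count, 18 against 7. The farthest adult contact, at 273 kb near the promoter of Izumo4, had counts of 0 and 8 and was the largest adult excess of any member. The bin at 169 kb downstream, adult-specific with counts of 5 and 8, lay at the promoter of Dazap1, an RNA-binding protein.

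Both Tcf3 fragments had 2 bins in common, 5.13% of the Tcf3 bins and 20.0% of the Tcf3_1 bins. Of the 10 Tcf3_1 bins, 6 lay within 5 kb and 9 within 20 kb of a Tcf3 bin. Counts over the Tcf3_1 bins summed to 81 fetal and 91 adult, a ratio of 0.890 (0.652 to 1.21), and over the Tcf3 bins to 668 and 585, a ratio of 1.14 (1.02 to 1.28). Scaled to the batch's listed counts the Tcf3 ratio was 0.972, so its direction depends on the scaling. That of Tcf3_1 was 0.758 (0.555 to 1.03) under the same scaling.

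Over all 87 member contacts the counts were 1884 fetal and 1777 adult, a ratio of 1.06 (0.993 to 1.13), against 1.17 over the batch, and 0.903 once scaled to it. The fetal count, with 1 added, was at least 2-fold the adult count at 15 bins (17.2%, 9.98 to 26.8), against 21.1% of the batch. The adult count was at least 2-fold the fetal count at 8 bins (9.20%, 4.05 to 17.3), against 14.3%. Both batch shares lie inside these intervals. Tal1 had 4 bins of the first and 0 of the second kind, Lyl1 1 and 2, Tcf3_1 2 and 3, and Tcf3 8 and 3. A specific contact had no higher raw count in the population that called it at 3 member bins, where the batch share was 2.88%. They are the adult-specific bins of Tal1 at 6.94 kb, Lyl1 at 36.4 kb and Tcf3 at 80.2 kb upstream. The last had counts of 20 and 19, and the others are described above. Raw counts over the batch leaned to fetal HSCs by the ratio of 1.17.

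**Figure D3:**
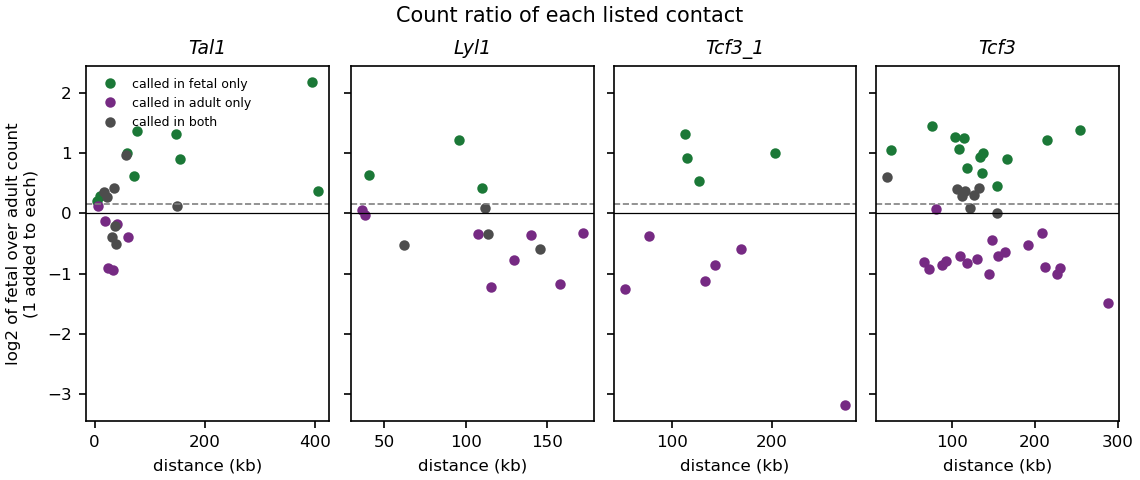
Log2 ratio of fetal over adult count (1 added to each) per bin against its distance in kb, 1 panel per member fragment, with colour for the class of the contact. Upstream and downstream bins are drawn together, and the dashed line is the first-batch median of 0.15; all fetal-specific contacts lie above 0 and all adult-specific contacts below it except the 3 whose count was no higher in adult HSCs.

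Contacts seen from the other end gave counts from other captured promoters, some in the second batch and so from other libraries. Pdzk1ip1, the neighbour of Tal1, was captured in the second batch and had 4 contacts within 2 kb of the Tal1 fragment, 1 shared and 3 adult-specific. They held 241 fetal and 295 adult counts, a ratio of 0.817 (0.686 to 0.972), beside 0.869 over all listed contacts of Pdzk1ip1. From Tal1, the bins nearest to Pdzk1ip1, at 30.9 and 32.9 kb, had counts of 31 and 41 and of 23 and 45. Summed counts were thus higher in adult HSCs from both ends, where bins listed through an adult call alone raise the adult sum. Pdzk1ip1 stood at 7.51 FPKM in fetal and 24.1 in adult HSCs. Foxd2, a forkhead factor captured in the second batch, lay at the Tal1 contacts 149 and 147 kb upstream, which had counts of 11 and 10 and of 9 and 3.

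Within 2 kb of the Lyl1 fragment, 11 contacts from 5 other promoters summed to 339 fetal and 336 adult counts, a ratio of 1.01 (0.865 to 1.18). Nfix, in the second batch, met Lyl1 with 3 shared contacts and 167 and 172 counts. Its bin 1.64 kb downstream of the Lyl1 fragment had scores of 10.9 in fetal and 21.4 in adult HSCs with counts of 71 and 100. Its bin on the other side went the opposite way, with scores of 8.01 and 3.12 and counts of 58 and 37, and the bin that overlaps the fragment had counts of 38 and 35. Klf1, an erythroid factor also in the second batch, met Lyl1 in fetal HSCs alone with counts of 26 and 17. Farsa gave 44 and 42 counts, Ier2 86 and 81, and Syce2 16 and 24. The intervals of all 5 ratios include 1.

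Within 2 kb of the Tcf3 fragment, bins met by 3 other promoters had higher fetal counts. The contact of Mbd3_1 was shared, and those of Mbd3 and Adamtsl5 were fetal-specific. Fetal-specific contacts here and at Tcf3_1 were listed through the fetal call, which selects for a high fetal count, so their ratios repeat the calls in part. Mbd3_1 gave 85 fetal and 43 adult counts, a ratio of 1.98 (1.35 to 2.92) beside 1.22 over all its contacts, and Mbd3 gave 52 and 27, a ratio of 1.93 (1.19 to 3.19) beside 1.25. From Adamtsl5, a promoter of the second batch, came 38 and 15, a ratio of 2.53 (1.36 to 4.96) beside 1.28. Its bin lay 1.85 kb downstream of the Tcf3 fragment and did not overlap it, so it is not the same pair as the Tcf3 bin at 71.8 kb, which lay beside Adamtsl5. Within 2 kb of the Tcf3_1 fragment, Mbd3_1 gave 3 fetal-specific contacts with 145 and 71 counts, a ratio of 2.04 (1.53 to 2.75), of which the bin that overlaps the fragment held 49 and 30, and Dazap1 an adult-specific contact with 6 and 10. Pairs captured in the same batch may count the same ligation products from both ends, so Mbd3 and Mbd3_1 are not independent of the Tcf3 counts.

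Members also met bins that other promoters met. Over the first batch, 40.9% of contacts had a bin that was also listed for another promoter of either batch. Of the Tal1 bins, 11 of 23 (47.8%) were also listed for another promoter, 8 of them for Pdzk1ip1 and 4 for Foxd2. Lyl1 had 14 of 15 such bins, 10 in common with G430095P16Rik and 9 with Ier2. Tcf3 had 29 of 39, 20 in common with Mbd3_1 and 18 with Mbd3, and Tcf3_1 had 8 of 10, all 8 in common with Mbd3_1. Lyl1 (93.3%), Tcf3_1 (80.0%) and Tcf3 (74.4%) were above the batch share and Tal1 near it; how densely promoters were captured around each member was not examined.

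Of 20 other genes of the network that were looked for, 14 were listed, with 19 promoter entries. Of the 13 entries of the first batch, 6 had more fetal calls, 5 more adult calls and 2 equal calls, where 938 of all 1952 promoters of that batch had more fetal, 822 more adult and 192 equal calls. The other 6 entries were captured in the second batch, where the smallest score was 2, and 3 had more fetal, 2 more adult and 1 equal calls. No share over all second-batch promoters is given beside these calls. The RNA directions below likewise have no share over all promoters beside them, so neither was set against a background. The 10 entries of Tal1 partners went both ways in RNA, 4 higher in fetal and 6 in adult HSCs. Among them, both Lmo2 entries had higher adult RNA, at 125 FPKM in fetal against 262 in adult HSCs for Lmo2 and 125 against 270 for Lmo2_1, with 5 fetal and 4 adult calls for Lmo2 and 4 and 12 for Lmo2_1. Gata2 also had higher adult RNA, 21.9 against 57.3, with 30 calls in each population. Ldb1_1, the bridging protein, had 56.4 and 58.6 FPKM with 1 fetal and 7 adult calls. Higher fetal RNA was listed for Ssbp3, which binds Ldb1, at 32.6 against 17.9, for Gata1 at 15.6 against 8.09 and for Lmo1 at 1.89 against 1.17, with 15 and 18, 3 and 3, and 2 and 1 fetal and adult calls. Cbfa2t3, a corepressor of the complex, had more fetal calls at both entries, 21 against 15 and 41 against 34.

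All 3 listed Id genes had higher fetal FPKM: Id1 at 6.64 against 0.736, Id2 at 2.76 against 0.534 and Id3 at 3.73 against 0.131. Calls of Id1 were 11 fetal and 15 adult, of Id2 4 and 2, and of Id3 21 and 26. The E protein gene Tcf4 had higher adult RNA at both entries, 2.86 against 5.86 and 4.71 against 9.86, opposite in direction to Tcf3. Runx1, Erg and Fli1, which bind together with Tal1 and Lyl1 in blood progenitors, had higher adult FPKM at all 4 entries, and Runx1 had 44 fetal and 38 adult calls. Direction in RNA and direction in calls thus differed for several of these genes.

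As a check on the labelled cells, all 5 stem cell markers were listed, and they went both ways. Kit stood at 32.8 FPKM in fetal and 50.5 in adult HSCs, Hlf at 23.5 and 35.0, Mecom at 9.84 and 10.7, Cd34 at 36.3 and 26.5, and Procr at 10.4 and 8.94. The erythroid markers Hba-a1 (6.27 against 0.0112) and Klf1 (24.0 against 2.40) were higher in fetal HSCs. So were all 3 myeloid markers (Mpo 46.1 against 2.04, Elane 11.1 against 1.39, Csf1r 5.67 against 0.0390), while 0 of 3 lymphoid markers had a row. These levels moved with the population in which Tcf3 RNA was higher, and their part in the contacts and RNA levels of the members was not tested. In bulk libraries, fewer cells of a type and less RNA per cell cannot be told apart.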

How the data were processed

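Promoter Capture-C of fetal and adult HSCs was deposited as a table of LiMACC calls, with 1 row per promoter fragment and 2 kb bin. The submitters' processing notes name Trim Galore 0.41, Bowtie2 2.2.2 and mm9. The authors' table gives, per population and batch, a score whose scale is not stated in the sources used here and a count of reads, pooled over libraries as a sum or mean that is not stated. The deposited FPKM values and the 0 or 1 marks per bin were used as given. Values of all rows were read by population and batch, and members were set beside the whole first batch. Shares have Clopper-Pearson 95% intervals, count ratios exact conditional intervals, counts exact Poisson intervals and medians order-statistic intervals (Python 3.11.15, scipy 1.17.1). The code of the Clopper-Pearson and count ratio intervals was run on simulated data, and that of the Poisson and order-statistic intervals was not. The library totals were not used here, so the listed counts stand for depth. No column per library was used here, so the planned edgeR fit was not run, nor was a protein comparison.

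The members, gene lists and tests were chosen with earlier results of these data known, and the 50 kb limit and the runs of neighbouring bins after values were seen. Named contacts are the 5 with the highest score per fragment, those called in both populations with an active mark, the farthest and those with the largest count ratios; other bins named, among them those beside these or at the edges of runs, were chosen after their values were seen. Genes with a captured promoter within 2 kb of a bin are also named. One marker gene is not reported here. Alternatives changed the score limit, distance limit, bin tolerance, scaling and added value.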

Additional observations from a re-analysis of the deposited data

How the results depend on the processing

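At a score 1 unit higher the members kept 16 of 49 fetal and 23 of 58 adult calls, and merging called bins within 5 kb left 31 and 38. The share of fetal calls also called in adult HSCs rose from 40.8% to 56.2% at the higher score, and to 71.4% or 91.8% where bins within 5 or 20 kb counted as shared, tolerances that can only raise it. Fetal calls in open bins went from 59.2% to 77.6% when a listed next bin counted. Scaling to listed counts turned the count ratio of all members from 1.06 to 0.903, of Tal1 from 1.07 to 0.911 and of Tcf3 from 1.14 to 0.972. It moved Lyl1 from 0.909 to 0.774 and Tcf3_1 from 0.890 to 0.758. The higher score moved the fetal share of Tcf3_1's specific contacts from 4 of 10 to 66.7%, across the even split. Upstream of Tal1 that score left 2 specific contacts, both fetal, and downstream 4, of which 25.0% were fetal. Of 30 alternatives to values over all members and to the log2 FPKM ratios, 21 kept the direction and stayed within the interval or, where there is none, within 1.5 times. The last alternatives for Tal1 by side were chosen after seeing the data. No paired analysis was possible because values were pooled per population, and leaving out a library was not run for the same reason. Counts of 0 to 147 per bin limit the precision of single contacts.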
